A study of Homo sapiens with 6 samples.

Results

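The oligoadenylate synthetases OAS1, OAS2, OAS3 and OASL were followed across 6 RNA-sequencing libraries of PA-1 cells, a human teratocarcinoma line grown from an ovarian tumour. All 4 genes (identifiers 4938, 4939, 4940 and 8638) were found by symbol among the 20494 genes of the deposited table, and all 4 had a mean of at least 1 RPKM (reads scaled to gene length and to the size of the library), as did 11881 genes in all.

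The groups were PA-1 cells given pCDNA3.1 vector (called Vector), RIPK1, RIPK2, RIPK3 or RIPK4, each as 8 µg of plasmid for 48 h, and cells given 200 ng of Wnt3a for 16 h. Whether the Wnt3a cells also took plasmid is not stated. RIPK1 to RIPK4 are receptor-interacting protein kinases, and Wnt3a is a secreted ligand of the beta-catenin pathway. Cells without any treatment are not among these groups, so Vector cells had taken plasmid as well. Each group is 1 library of 1 cell line, without a replicate. Differences below therefore have no replicate check, carry no p-value and describe these libraries, and the 95% intervals in brackets cover counting error only. Time, ligand and plasmid cannot be told apart wherever Wnt3a is set against another library.

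Oligoadenylate synthetases are interferon-induced enzymes that bind double-stranded RNA, a common product of viral replication, and then join ATP into short 2′-5′-linked oligoadenylates, called 2-5A. These messengers switch on the cutting of single-stranded RNA of the virus and of the cell. OAS1, OAS2 and OAS3 carry 1, 2 and 3 synthetase-type units. OASL has lost the enzyme activity, ends in ubiquitin-like domains and is known to assist the RNA sensor RIG-I (DDX58). Transcription of the family is driven by interferon through ISGF3, a complex holding STAT2 and IRF9 that binds the interferon-stimulated response element (ISRE), and OASL also responds to IRF3 directly.

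OAS1, OAS3 and OAS2 lie next to one another on chromosome 12, in that order, and OASL lies farther along the same chromosome, per the RefSeq annotation. RefSeq promoters of 300 bases (250 before and 50 after the annotated start, build GRCh38.p14) were at hand for OAS1 and OAS3. They are shown because these neighbours share an order of levels only in part, as described further on. Whether the promoters bear on that was not tested. Each is written 5′ to 3′, with capitals marking GAAA repeats that stand 1 or 2 bases apart. The form with 2 bases between is the usual core of the ISRE.
OAS1, chr12:112906712-112907011, plus strand: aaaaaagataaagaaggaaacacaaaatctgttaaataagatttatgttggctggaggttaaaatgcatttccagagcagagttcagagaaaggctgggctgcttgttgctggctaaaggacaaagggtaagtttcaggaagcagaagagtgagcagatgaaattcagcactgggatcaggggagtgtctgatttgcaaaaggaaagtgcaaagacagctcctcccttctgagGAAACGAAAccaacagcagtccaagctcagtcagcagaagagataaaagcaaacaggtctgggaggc
OAS3, chr12:112938224-112938523, plus strand: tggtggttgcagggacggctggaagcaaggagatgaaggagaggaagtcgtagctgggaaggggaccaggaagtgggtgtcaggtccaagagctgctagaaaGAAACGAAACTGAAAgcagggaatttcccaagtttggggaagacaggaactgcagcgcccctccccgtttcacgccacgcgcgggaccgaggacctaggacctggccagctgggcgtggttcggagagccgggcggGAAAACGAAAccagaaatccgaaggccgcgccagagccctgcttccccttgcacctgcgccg

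In the OAS1 window the single match was GAAACGAAA, with 1 base between the repeats, which began 17 bases before the start. The OAS3 window held GAAAACGAAA at 12 bases before the start and GAAACTGAAA at 143 bases before it, the latter overlapping a GAAACGAAA that began at 148 bases. On both strands, GAAA repeats with any 2 bases between them were found in 3.57% of 35116 RefSeq promoters of this length, and GAAANGAAA in 3.12%. The OAS1 window also held TTCNNNGAA, the letters of the gamma-activated site (7.66% of promoters), and the OAS3 window held GGGAATTTCC, a match to GGG, any 2 bases and TTTCC, a form of the NF-kB site that was added to the search after the sequence was read (1.91% of promoters). Among 38 windows of 30 further interferon-stimulated genes, 25 held the form with 2 bases between and 13 the form with 1. The lack of the 2-base form in the OAS1 window therefore does not show that it has no ISRE. These matches describe letters in a window and not binding.

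OAS1 stood at 31.2 RPKM in Vector, 11.2 with Wnt3a, 4.15 with RIPK1, 56.8 with RIPK2, 70.9 with RIPK3 and 29.6 with RIPK4. RIPK3 and RIPK2 were thus the high libraries, RIPK1 the low one, and RIPK4 stood beside Vector. These values rest on 203 reads with RIPK1, 519 with Wnt3a and 1348 to 3392 in the other libraries. From highest to lowest, the only neighbours that counting error did not separate were Vector and RIPK4 (ratio 1.05, 0.976 to 1.14).

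OAS2 stood at 22.5 RPKM in Vector, 5.99 with Wnt3a, 1.99 with RIPK1, 48.8 with RIPK2, 58.9 with RIPK3 and 21.3 with RIPK4. The libraries took the same order as for OAS1, again with Vector and RIPK4 not separated (1.06, 0.998 to 1.12). RIPK3 stood 29.7-fold above RIPK1 (26.1 to 33.9). On the log2(RPKM + 1) scale this was the third widest range over the 6 libraries among the 11881 genes, at 4.33.

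OAS3, the longest of the synthetases, stood at 34.8 RPKM in Vector, 28.3 with Wnt3a, 4.85 with RIPK1, 79.6 with RIPK2, 91.1 with RIPK3 and 53.4 with RIPK4. It was the most abundant synthetase per length in each of the 6 libraries. Here RIPK4 stood over Vector, Wnt3a lay a little below Vector, and counting error separated all 5 pairs of neighbours. Both differences depended on the trend of fold changes over transcript GC content. With it removed the log2 difference from Vector was 0.40 rather than 0.60 with RIPK4, and -0.54 rather than -0.29 with Wnt3a. The OAS3 reads, about 636 with RIPK1 and 3518 or more elsewhere, are approximate because whole reads could not be recovered for this gene.

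OASL stood at 3.47 RPKM in Vector, 2.61 with Wnt3a, 0.845 with RIPK1, 25.8 with RIPK2, 23.5 with RIPK3 and 9.21 with RIPK4. It was the least abundant member in every library, and RIPK2, not RIPK3, was its highest library. Neither RIPK2 and RIPK3 (1.10, 0.996 to 1.21) nor Vector and Wnt3a (1.33, 0.995 to 1.78) were separated by counting error. Its RIPK1 value rests on 30 reads.

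**Figure D1:**
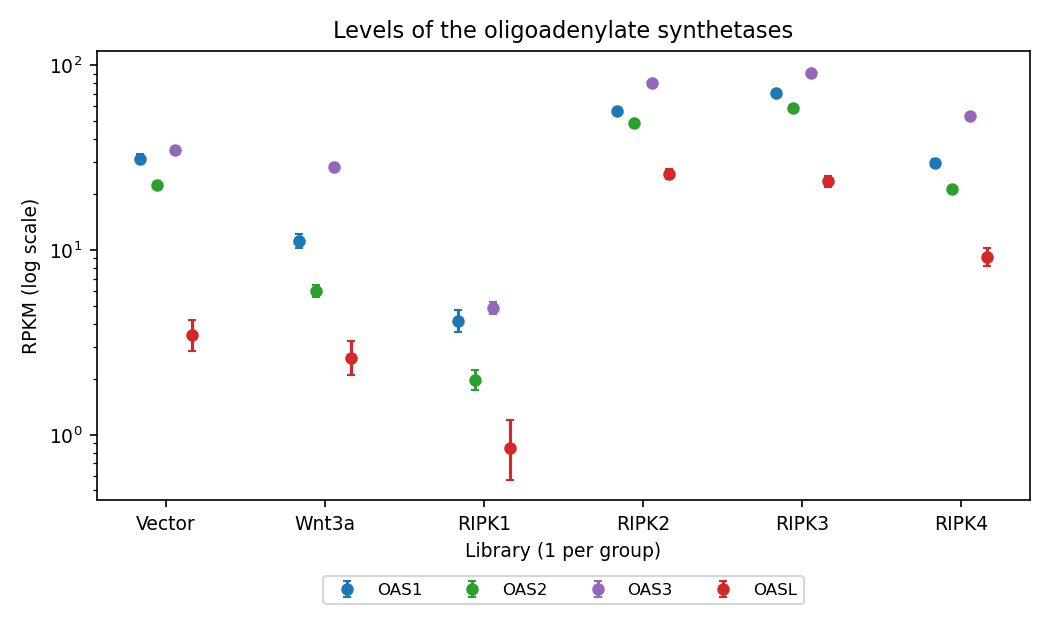
RPKM of OAS1, OAS2, OAS3 and OASL (vertical, log scale) in the 6 libraries (horizontal, 1 per group), with 95% Poisson intervals that cover counting error only. The 4 synthetases were lowest in RIPK1 and highest in RIPK2 or RIPK3.

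The comparisons with Vector share that 1 library, so its own value enters all 5 of them. Differences are of log2(RPKM + 1), and 2-fold on that scale was the line for a count, which understates differences at low values. Folds are ratios of RPKM itself.

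With RIPK1, a kinase that relays signals from death receptors, all 4 synthetases stood below Vector by 2-fold or more, as did 0.547% of the genes tested. Their median difference was -2.63, against 0.01 over all genes tested. OAS2 was farthest down at 11.3-fold lower (9.90 to 13.0), OAS1 was 7.51-fold lower (6.48 to 8.75) and OAS3 7.17-fold lower (6.60 to 7.82). OASL was 4.11-fold lower (2.72 to 6.38). In Vector OAS1 stood above 82.4% of the genes tested, and with RIPK1 above 24.9% of them. The RIPK1 transcript itself stood at 16.6 RPKM in this library, against 12.8 in Vector.

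With RIPK2, a kinase that acts beneath NOD receptors, 3 of 4 synthetases were at least 2-fold higher, where 1.6% of genes were. OASL led at 7.42-fold (6.08 to 9.14), and the others were close to one another, OAS3 at 2.29-fold (2.21 to 2.37), OAS2 at 2.17-fold (2.07 to 2.28) and OAS1 at 1.82-fold (1.71 to 1.95). The ratio of OASL thus exceeded that of OAS1 by 4.07 times (3.30 to 5.02) and that of OAS3 by 3.25 times (2.65 to 3.97). With the trend of fold changes over transcript GC content removed, OAS3 stood just under the 2-fold line.

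With RIPK3, the necroptosis kinase, all 4 were at least 2-fold higher, where 1.48% of genes were, with a median difference of 1.36 against 0.02 over all genes. OASL was 6.77-fold higher (5.54 to 8.35), OAS2 2.62-fold (2.50 to 2.75), OAS3 2.62-fold (2.53 to 2.71) and OAS1 2.27-fold (2.13 to 2.42). Set directly against RIPK2, none of the 4 was 2-fold apart in RIPK3, where 0.37% of genes were in either direction. OAS1, OAS2 and OAS3 were 1.25, 1.21 and 1.14 times as high in RIPK3 as in RIPK2, each with an interval above 1, and OASL 0.912 times as high (0.829 to 1.0).

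With RIPK4, a kinase tied to Wnt signalling and epidermal differentiation, OASL alone of the 4 was 2-fold higher, where 0.404% of genes were, and 0 of 4 were 2-fold lower, where 0.387% were. It was 2.65-fold higher (2.12 to 3.33). OAS3 was 1.53-fold higher (1.47 to 1.59), a log2 difference of 0.60 that was 0.40 with the GC trend removed (Spearman rho of fold change with GC 0.667), while OAS1 and OAS2 stood at 0.95 (0.880 to 1.03) and 0.946 (0.894 to 1.0) of Vector. The ratio of OASL exceeded that of OAS2 by 2.80 times (2.24 to 3.51), and that of OAS3 exceeded it by 1.62 times (1.51 to 1.74).

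With Wnt3a, OAS1 and OAS2 were at least 2-fold lower, where 1.43% of genes were. OAS2 was 3.75-fold lower (3.45 to 4.09) and OAS1 2.79-fold lower (2.52 to 3.09). OAS3 was 1.23-fold lower (1.18 to 1.29) and OASL 1.33-fold lower, with an interval of 0.995 to 1.78 that takes in 1. The family was thus split here, and the ratio of OAS3 exceeded that of its neighbour OAS2 by 3.05 times (2.77 to 3.35). Fold changes with Wnt3a followed transcript GC content (Spearman rho 0.693 over 11779 genes), and the longest OAS3 transcript has 54.3% GC against 48.2% for OAS1 and 47.0% for OAS2. With that trend removed the log2 differences were -0.54 for OAS3, -1.45 for OAS1 and -1.75 for OAS2, so the split was smaller but remained.

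**Figure D2:**
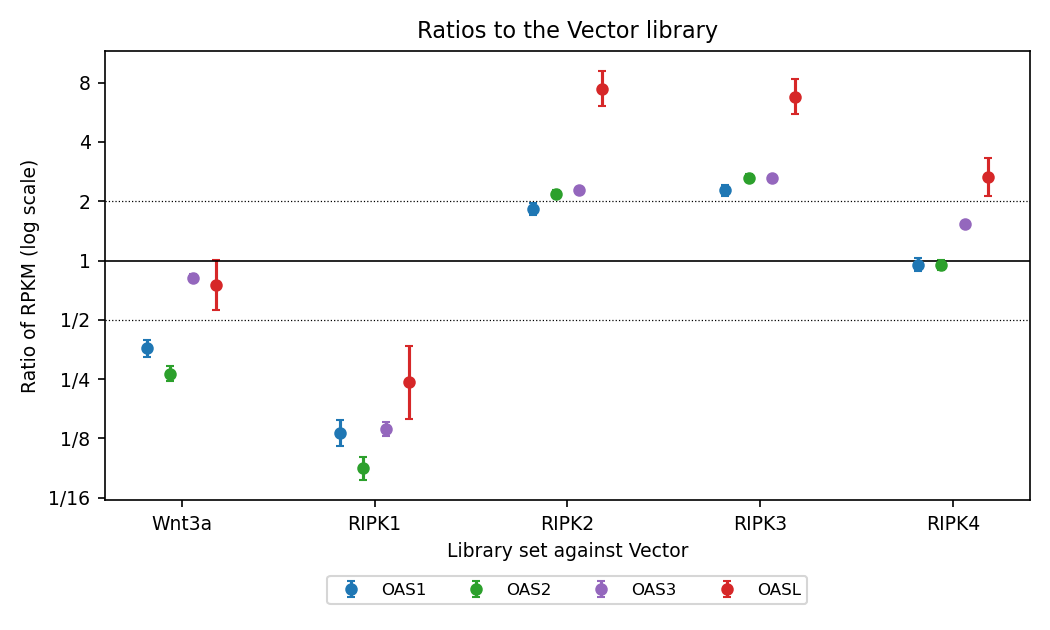
Ratio of RPKM to the Vector library (vertical, log scale) for each synthetase in 5 libraries (horizontal), with exact 95% binomial intervals for counting error and dotted lines at 2-fold. OASL stands above OAS1, OAS2 and OAS3 with RIPK2, RIPK3 and RIPK4, and OAS1 and OAS2 lie below OAS3 and OASL with Wnt3a.

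The libraries other than Vector were also set against one another. Against Wnt3a, 3 synthetases were at least 2-fold higher with RIPK4, where 0.303% of genes were: OAS2 by 3.55-fold (3.26 to 3.87), OASL by 3.53-fold (2.77 to 4.52) and OAS1 by 2.65-fold (2.39 to 2.94). OAS3 was 1.89-fold higher (1.81 to 1.97). RIPK1 was lower than Wnt3a by at least 2-fold for OAS1, OAS2 and OAS3, where 0.833% of genes were, with OAS3 5.82-fold lower (5.35 to 6.35). OASL was 3.09-fold lower in RPKM (2.02 to 4.85), yet at these low values its log2(RPKM + 1) difference was -0.97, and -1.52 with a pseudocount of 0.1.

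The makeup of the family differed between libraries. Summed over the 4 genes, the level was 91.9 RPKM in Vector, 48.0 with Wnt3a, 11.8 with RIPK1, 211.0 with RIPK2, 244.4 with RIPK3 and 113.4 with RIPK4. OASL made up 3.78% of that sum in Vector and more in each other library, at 5.43% with Wnt3a, 7.14% with RIPK1, 12.2% with RIPK2, 9.62% with RIPK3 and 8.12% with RIPK4. OAS3 made up 58.8% of it with Wnt3a and 37.3% to 47.1% in the other libraries. Per length, OAS3 was 1.55 times as abundant as OAS2 in Vector and in RIPK3, and 4.72 times as abundant with Wnt3a.

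**Figure D3:**
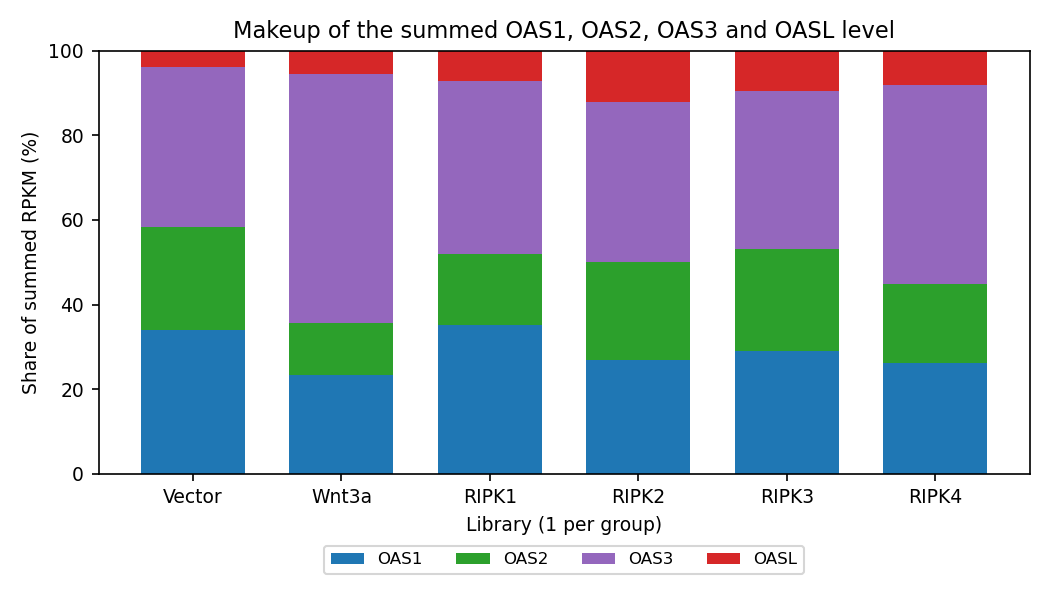
Share of the summed RPKM of OAS1, OAS2, OAS3 and OASL taken by each gene (vertical, percent) in the 6 libraries (horizontal). The OASL share was 3.78% in Vector and 12.2% with RIPK2, and the OAS3 share was 58.8% with Wnt3a.

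Other genes that act on the 2-5A pathway followed other orders. ABCE1, a ribosome recycling factor also known as an inhibitor of the pathway, stood at 36.8 RPKM in Vector and 16.1 with Wnt3a, 2.28-fold lower (2.14 to 2.44). With RIPK1, where the synthetases were lowest, ABCE1 was at 30.5 RPKM, and with RIPK2, RIPK3 and RIPK4 at 19.7, 23.8 and 23.6 RPKM. PDE12, a phosphodiesterase that degrades 2-5A, lay between 7.60 and 8.98 RPKM in all 6 libraries. AKAP7, whose family holds 2-5A phosphodiesterase activity, stood at 5.80 RPKM in Vector and 2.52 with Wnt3a. It was at 4.38 RPKM with RIPK1, 3.25 with RIPK2, 3.53 with RIPK3 and 3.54 with RIPK4. ABCE1, PDE12 and AKAP7 were none of them 2-fold apart with RIPK1, RIPK2, RIPK3 or RIPK4, and with Wnt3a ABCE1 passed the 2-fold line. Between 0.791% and 2.3% of all genes were 2-fold apart in these 5 comparisons with Vector. AKAP7 was 2.30-fold lower in RPKM with Wnt3a (1.89 to 2.81) but stood at -0.95 on the log2(RPKM + 1) scale, short of the line. The values of ABCE1, PDE12 and AKAP7 are given without the GC trend removed.

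Among the interferon ligands, IFNB1, encoding interferon beta, had 4 reads in Vector, 0 with Wnt3a, 0 with RIPK1, 29 with RIPK2, 17 with RIPK3 and 5 with RIPK4. The corresponding levels with RIPK2 and RIPK3 were 1.79 and 1.06 RPKM, against 0.276 in Vector, a ratio of 6.48 (2.28 to 25.4) with RIPK2. IFNB1 is below a mean of 1 RPKM and is named after its values were seen. IL29, which encodes interferon lambda-1 and was the 1 ligand of 9 above that mean, had 2 reads in Vector, 3 with Wnt3a, 4 with RIPK1, 54 with RIPK2, 31 with RIPK3 and 7 with RIPK4. Its ratio to Vector was 24.1 with RIPK2 (6.37 to 204.4) and 14.0 with RIPK3 (3.56 to 120.8), both resting on the 2 reads in Vector. IL29 passed the mean of 1 RPKM only through RIPK2 and RIPK3, so its differences there are a description. IFNA1, IFNA2 and IFNG were at 0 in all 6 libraries. RIPK2 was the highest library for both, but for IFNB1 counting error did not separate it from RIPK3 (RIPK3 to RIPK2 ratio 0.592, 0.305 to 1.11).

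Receptors and their kinases came next. Of 9 genes for interferon receptors and JAK kinases, 8 were kept, and none of these was 2-fold apart in any of the 5 comparisons with Vector. Of all genes, 0.791% to 2.3% were, so none of 8 is close to that share. The receptor gene not kept was IL28RA, with 0 to 4 reads in each library. IFNAR1, a chain of the type I receptor, lay between 2.98 and 4.53 RPKM. TYK2, a kinase of that receptor, stood at 10.3 RPKM both in Vector and with RIPK1. It was at 17.3 RPKM with Wnt3a, 17.6 with RIPK2, 15.9 with RIPK3 and 17.8 with RIPK4, the last 1.72-fold above Vector (1.58 to 1.87). Fold changes over all genes followed GC content with Wnt3a, RIPK2, RIPK3 and RIPK4 (Spearman rho 0.693, 0.663, 0.544 and 0.667). The TYK2 values are given without that trend removed.

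Factors that act on the ISRE followed the synthetases in part. IRF7, an interferon-induced factor that amplifies interferon genes, was 3.17-fold lower with RIPK1 (2.78 to 3.63) and 1.80-fold higher with RIPK2 (1.66 to 1.96). STAT2 and IRF9 were 1.42-fold and 1.88-fold lower with RIPK1. Of the 7 kept genes of this list, 2 were 2-fold lower with RIPK1 and 1 with Wnt3a, where 0.547% and 1.43% of all genes were. None was 2-fold higher in a comparison with Vector, where 0.791% to 2.3% of all genes were 2-fold apart in either direction. The list median was -0.48 with RIPK1, -0.48 with Wnt3a and 0.41 with RIPK2, against 0.01, 0.04 and -0.01 over all genes.

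Other sensors of double-stranded RNA were split as well. IFIH1 (MDA5), a sensor of long RNA duplexes, was 9.31-fold lower with RIPK1 (7.24 to 12.1), 3.13-fold lower with Wnt3a (2.65 to 3.70) and 2.13-fold higher with RIPK3 (1.93 to 2.35). DDX58, the partner of OASL, was 3.13-fold lower with RIPK1 (2.89 to 3.39) and 3.87-fold lower with Wnt3a (3.54 to 4.23), a larger difference with Wnt3a than with RIPK1. EIF2AK2, the kinase PKR, was 2.23-fold lower with Wnt3a (2.07 to 2.40) and 1.44-fold lower with RIPK1 (1.35 to 1.53). Of the 9 genes kept in this list, 2 were 2-fold lower with RIPK1, 3 with Wnt3a and 0 with RIPK4, where 0.547%, 1.43% and 0.387% of all genes were. With RIPK3 1 was 2-fold higher and with RIPK2 0, where 1.48% and 1.6% of all genes were. MAVS, the adaptor of the RNA sensors, lay between 13.2 and 17.8 RPKM, and ZBP1 was at 0 in all 6 libraries.

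Negative regulators were represented by USP18, which blocks the type I receptor and removes ISG15, at 10.7 RPKM in Vector, 3.63 with RIPK1 and 22.6 with RIPK3. SOCS1, a JAK inhibitor, stood at 11.1 RPKM with Wnt3a and 11.3 with RIPK4, above the 6.15 of Vector. With Wnt3a all 4 synthetases stood below Vector, OASL with an interval that takes in 1. The SOCS1 values are given without the GC trend removed. In the list of 30 further interferon-stimulated genes 23 were kept. Of these, 16 were 2-fold lower with RIPK1, 9 with Wnt3a and 0 with RIPK4, where 0.547%, 1.43% and 0.387% of all genes were. With RIPK2 and RIPK3, 4 and 5 were 2-fold higher, where 1.6% and 1.48% of all genes were. Both counts include CMPK2, which passed the mean of 1 RPKM only through RIPK2 (2.33) and RIPK3 (3.62), so its differences there are a description. Medians of the kept genes were -1.55 with RIPK1, -0.76 with Wnt3a, 0.47 with RIPK2, 0.67 with RIPK3 and -0.15 with RIPK4. Over all genes they were 0.01, 0.04, -0.01, 0.02 and 0.05. For the 4 synthetases the medians with RIPK2 and Wnt3a were 1.13 and -0.86.

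**Figure D4:**
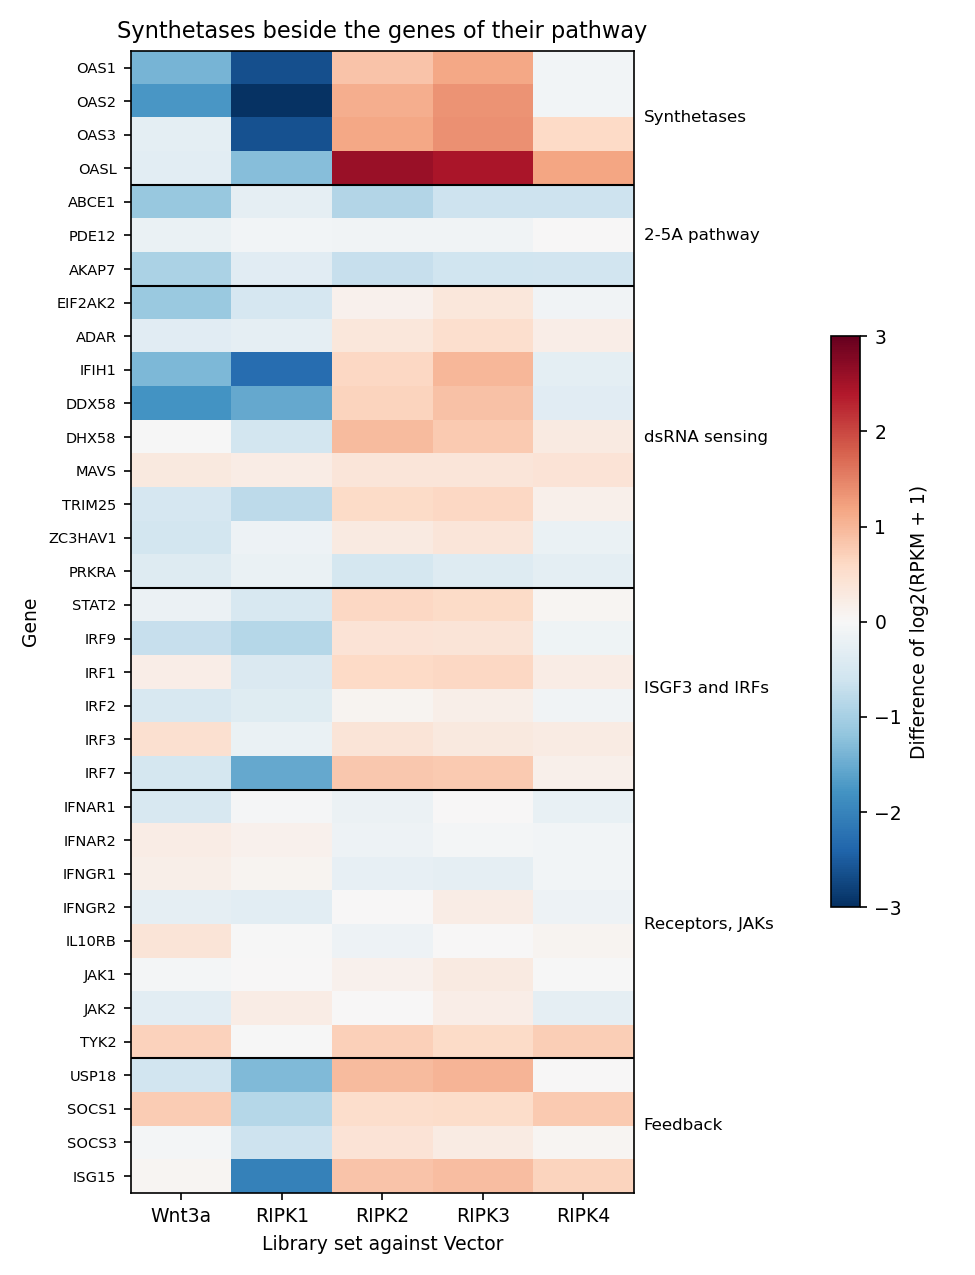
Difference of log2(RPKM + 1) from the Vector library (colour, red higher and blue lower) for the 4 synthetases and kept genes of 5 pathway lists (rows) in 5 libraries (columns). The synthetase rows are blue with RIPK1 and red with RIPK2 and RIPK3, while most rows of receptors and JAK kinases are pale throughout.

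Genes with the most similar pattern were sought among 872 genes that were kept and varied by at least 1 on the log2(RPKM + 1) scale, by Pearson correlation over the 6 libraries. The points are the same 6 libraries for every gene, so these values are a description, and the GC trend was not removed from them. OAS1 and OAS2 were each nearest to the other (r = 0.9988), followed for both by IFIH1, HERC6 (a ubiquitin-ligase family gene) and LAP3 (an aminopeptidase). OAS3 was nearest to BST2 (tetherin, 0.997), then UBA7 (the activating enzyme for ISG15, 0.9947), ISG15, IFI35 and OGFR. OASL was nearest to FBXO6 (0.9961), GDF15 (a stress cytokine, 0.9948), AP5Z1, the chemokine CCL5 (0.99) and TOR4A. Among the members themselves r was lowest between OAS3 and OASL, at 0.9115.

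Without the GC trend removed, UBA7 and ISG15 shared with OAS3 a value with Wnt3a close to Vector. UBA7 stood at 2.43 against 2.47 RPKM and ISG15 at 882 against 849 RPKM. With the trend removed, the OAS3 log2 difference was -0.54 rather than -0.29. The part of GC content in the likeness of these genes was not tested. With RIPK1, UBA7 and ISG15 stood at 0.217 and 209 RPKM. CCL5 resembled OASL in its high libraries, at 7.77 RPKM with RIPK2, 8.5 with RIPK3 and 2.89 with RIPK4 against 0.992 in Vector.

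The levels of protein-coding genes around the synthetases were looked up as well. RPL6, PTPN11 and RPH3A precede the OAS1-OAS3-OAS2 group in RefSeq (GRCh38.p14) and DTX1, RASAL1 and CCDC42B follow it, whereas SPPL3, P2RX7, P2RX4 and CAMKK2 lie near OASL. RPL6, PTPN11, CCDC42B, SPPL3, P2RX4 and CAMKK2, which were kept, were not 2-fold apart in the 8 comparisons made. Only 0.37% to 2.3% of all genes were. RPH3A, DTX1, RASAL1 and P2RX7 stayed at or below 0.11 RPKM in all libraries, too low for the 2-fold line to be reached. In GENCODE release 29 an antisense gene (AC004551.1) shares 92 exon bases with OAS1 on the opposite strand. Whether the counting used strand is not given in the sources used here, so such reads cannot be told apart from those of OAS1.

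The read totals behind the RPKM values lay between 17249016 and 19512292. Each transfected kinase was highest in the library that bears its name, RIPK1 by the least. It stood at 16.6 RPKM in its own library, against 13.4 in the RIPK3 library and 12.8 in Vector. Of 11 markers of pluripotent embryonal cells, 8 or 9 stood at 1 RPKM or more in every library, while TDGF1 was at 0 in all 6. Their summed level was 677.3 RPKM in Vector, 523.8 with Wnt3a, 737.3 with RIPK1, 440.2 with RIPK2, 477.4 with RIPK3 and 616.6 with RIPK4. LIN28A made up much of that sum, at 338.7 RPKM in Vector, 337.3 with Wnt3a, 213.3 with RIPK2 and 241.4 with RIPK3. The median difference from Vector over the 9 kept markers took another order. It was -0.66 with Wnt3a, 0.05 with RIPK1, -0.41 with RIPK2, -0.18 with RIPK3 and -0.29 with RIPK4. None of 13 haematopoietic markers reached 1 RPKM in any library, their summed level was 0.772 to 1.78 RPKM, and MS4A1, HBB and PPBP were at 0 throughout. Of 10 fibroblast and endothelial markers 6 reached 1 RPKM in each library, DCN was at 0 in all 6, and the summed level was 84.95 RPKM in Vector, 111 with Wnt3a, 81.5 with RIPK1, 144.6 with RIPK2, 150.7 with RIPK3 and 100.1 with RIPK4. COL1A1 made up much of that sum, at 32.6 RPKM in Vector, 60.5 with Wnt3a, 82.6 with RIPK2 and 83.0 with RIPK3. With Wnt3a 4 of the 6 kept markers lay below Vector (list median -0.14), and with RIPK2 4 of 6 lay above it (median 0.62). The part of these markers in the synthetase levels was not tested. In bulk RNA, fewer cells with a transcript and less of it per cell cannot be told apart.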

How the data were processed

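RNA from 6 PA-1 libraries was sequenced, and the authors deposited 1 table of RPKM values, holding a column per library, per the file headers. Per the submitters' processing notes GSNAP, DESeq and hg19 were used. Roles, annotation and counting rule were not given in the sources used here. The deposited RPKM values entered unchanged.

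Reads behind each value were worked out from its printed digits. Library totals (17249016 to 19512292) were those at which genes with few reads gave whole reads and whole lengths. For each gene, the shortest length from 15 to 30000 bases at which all values were whole within the 5 printed digits was taken if fewer than 0.05 chance matches were expected up to it. This held for 15872 genes, including OAS1, OAS2 and OASL. For OAS3 reads were approximated from the longest GENCODE 29 transcript. The steps were tested on simulated data. Ratios have exact binomial 95% intervals, and ratios between genes have normal intervals on the log scale, all for counting error only.

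Genes were kept from a mean RPKM of 1 upward, the pseudocount was 1, and 2-fold was the line for a count. With 1 library per group no test was run. Alternatives were a pseudocount of 0.1, median-ratio scaling, removal of the GC trend (LOWESS, span 0.3, statsmodels 0.14.6), and other filters. Genes named were the 4 members, kept genes of the pathway lists (or those at 0), the 5 genes most like each member and genes on either side. Some genes that the rule covers are not reported here. The members, lists and rule were chosen with earlier results of these data known. GC content came from GENCODE 29 and gene order and promoters from RefSeq GRCh38.p14, of another build than hg19, so no coordinates were joined to the files. Promoters were at hand for 2 of the 4 members. Python 3.11.15 and scipy 1.17.1 were used.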

Additional observations from a re-analysis of the deposited data

How the results depend on the processing

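Of the 32 log2 differences (4 synthetases in 8 comparisons), all 32 kept their direction under a pseudocount of 0.1, median-ratio scaling and removal of the GC trend. All 32 kept their side of the 2-fold line under median-ratio scaling and 31 under each of the others. The exceptions were OASL in RIPK1 against Wnt3a with the smaller pseudocount and OAS3 in RIPK2 against Vector with the GC trend removed, which left 2 members 2-fold higher with RIPK2. The shifts ran from -0.64 to 0.28 with the smaller pseudocount, from -0.06 to 0.01 under scaling and from -0.24 to 0.22 without the GC trend. The share of all genes at least 2-fold apart in either direction was 2.1% for Wnt3a against Vector and 1.31% with no filter on low values. In the other 7 comparisons it was lower without the filter as well, for example 0.561% against 0.842% for RIPK1 against Vector. By Spearman correlation, 2 of the 5 genes nearest to OAS3 and 1 of the 5 nearest to OASL stayed among the highest. No paired analysis was possible because each group has 1 library. Few reads limit OASL with RIPK1 (30 reads) and the interferon ligands.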

Other observations

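Of 6 kept genes listed as relatives of the synthetases or partners of those relatives (nucleotidyltransferase fold), none was 2-fold apart in the 8 comparisons. The share of all genes 2-fold apart was 0.37% to 2.3%. Of genes named after their values were seen, ILF2, an RNA-binding protein, lay between 197 and 227 RPKM. MB21D1 (cGAS), the DNA sensor closest to the synthetases in structure, had 0 to 9 reads in the 6 libraries, and its adaptor TMEM173 (STING) had 29 to 47.

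Genes induced through NF-kB shared the direction of OASL with RIPK2, RIPK3 and RIPK4 but not with Wnt3a. All 6 kept genes of that list stood above Vector with RIPK2, RIPK3 and RIPK4, and with RIPK1 none stood above it, NFKBIA being level with Vector (8.11 RPKM in both). Their medians were 0.60, 0.73, 0.35 and -0.16, against -0.01, 0.02, 0.05 and 0.01 over all genes. CCL5 alone of the 6 was 2-fold higher, with RIPK2 and RIPK3, where 1.6% and 1.48% of all genes were. With Wnt3a all 6 stood above Vector (median 0.32), where all 4 synthetases stood below it, OASL with an interval that takes in 1. Fold changes over all genes followed GC content with Wnt3a, RIPK2, RIPK3 and RIPK4 (Spearman rho 0.693, 0.663, 0.544 and 0.667). With RIPK1 they did so little (-0.082). The NF-kB list values are given without that trend removed, and its part in them was not tested.

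In the promoters of the list of 30 further interferon-stimulated genes, GAAA repeats 1 or 2 bases apart were found in 30 of 38 windows (some genes have several), against 6.4% of all 35116 windows. The list of 9 interferon receptors and JAK kinases had it in 0 of 15 windows, and the housekeeping list in 2 of 8, and so few windows give no firm share.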
